A study of Mus musculus with 6 samples.

Results

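The EIF4 translation initiation factors were described through 10 genes, Eif4a1, Eif4a2, Eif4b, Eif4e, Eif4e2, Eif4ebp1, Eif4g1, Eif4g2, Eif4g3 and Eif4h, out of 51912 genes in the count table. The members were selected on their symbols and on 1 measured value, the higher Eif4a2 level in Bud31-vKO, and all 10 were found and passed the filter on low counts, as did 15240 genes in all. That value came from these same libraries, where DESeq2 gave Eif4a2 an adjusted p of 0.0233. The differences between genotypes below are therefore a description and carry no test for the members. RNA came from spermatogonial stem cells of C57BL/6J mice at postnatal day 4, which had been flow-sorted from testes for THY1 on the surface and against c-KIT, and was amplified by Smart-Seq2, a full-length cDNA method for little RNA. Of the 6 libraries 3 were wild type and 3 were Bud31-vKO, in which Bud31, a gene of the spliceosome, was targeted for removal by Cre between loxP sites. The labels used here name neither the promoter that drives Cre nor the animals behind each library, so the errors given are those among these libraries and could be technical in part or whole.

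Translation of most mRNAs begins when EIF4E binds the cap at the 5′ end and joins the scaffold EIF4G and the RNA helicase EIF4A in the complex EIF4F. EIF4A unwinds structure in the leader of the mRNA, EIF4B and EIF4H stimulate it, and 4E-BP1, the product of Eif4ebp1, keeps EIF4E from the scaffold until the kinase mTORC1 phosphorylates it. Mammals have a pair of closely related cytoplasmic EIF4A helicases, encoded by Eif4a1 and Eif4a2, which differ in some of their reported roles, and in most proliferating cells Eif4a1 is the more abundant. Control of translation is a known part of the passage of spermatogonia from the stem cell state to differentiation.

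The paralogues Eif4a1 and Eif4a2 carry the main pattern, so it matters whether their reads can be told apart. Eif4a1 (ENSMUSG00000059796) is a minus-strand gene of chromosome 11 (69666936 to 69672423, GRCm38), and Eif4a2 (ENSMUSG00000022884) a plus-strand gene of chromosome 16 (23107444 to 23114136). Their coding sequences of 1221 and 1227 bases, stop codon included, were identical at 954 of 1227 aligned positions (77.8%), and the longest run of identical bases was 20. No stretch of 50 bases of the Eif4a1 coding sequence occurred in that of Eif4a2. Eif4a1 also has a processed copy on chromosome 1, Eif4a-ps4, which was identical at 1217 of 1221 aligned positions, 3 of the others being gaps. In it occurred 95.5% of the stretches of 50 bases of Eif4a1. The 3 sequences below are the 60 bases around the codons of the DEAD box, the motif that names this helicase family, in bases 520 to 579 of the Eif4a1 coding sequence from GENCODE M21. Capitals mark bases that differ from Eif4a1.
Eif4a1: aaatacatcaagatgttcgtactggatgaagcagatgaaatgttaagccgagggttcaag
Eif4a2: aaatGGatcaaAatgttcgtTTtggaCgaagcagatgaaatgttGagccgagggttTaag
Eif4a-ps4: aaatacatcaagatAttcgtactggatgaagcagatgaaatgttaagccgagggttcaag
Eif4a2 differed from Eif4a1 at 8 of these 60 bases and the processed copy at 1. Over the whole alignment the copy was 99.67% identical, so the window is not typical of it.

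Where 3 values of a genotype are given together, they stand for its libraries 1, 2 and 3 in that order. Library totals lay between 13240704 and 18744466 reads, and 12464 to 22300 genes had at least 1 read. Wild type library 3 (13762 genes) and Bud31-vKO library 2 (12464 genes) stood apart with few genes detected, and values without both are given where they matter. The columns are named C and T in the table. C was read as wild type and T as Bud31-vKO, a reading that no label spells out. Bud31 itself measured 138, 96.8 and 158 CPM (reads scaled to library size) in the wild type and 47.2, 67.6 and 80.4 CPM in the Bud31-vKO libraries. The Bud31-vKO mean was 0.497 of the wild type mean, so reads of Bud31 were lower but not absent. Exons of Bud31 overlap those of Ptcd1 on the opposite strand over 244 bases, 15.2% of the exon length. Where the remaining reads came from was not tested. The summed level of 14 pan-germ-cell markers was 4222 to 5008 CPM in wild type and 2424 to 3252 CPM in Bud31-vKO. The sum of 11 T and NK cell markers was 14.8 to 138 CPM in wild type and 187 to 671 CPM in Bud31-vKO, that of 12 Sertoli cell markers 130 to 437 CPM and 192 to 1620 CPM, and that of 8 peritubular myoid and stromal markers 8631 to 17156 CPM and 6671 to 11732 CPM. Endothelial, macrophage, Leydig and erythroid sums overlapped between the genotypes and stayed at or under 238 CPM. In each library the sum of the myoid and stromal markers exceeded that of the pan-germ-cell markers. The levels, ranks and shares below are therefore those of whole libraries, and the part of stem cells in them was not tested. In such libraries fewer cells of a type and less RNA per cell cannot be told apart.

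The lowest Bud31-vKO level of Eif4a2 was above the highest wild type level. Its wild type counts were 5078, 4548 and 5254 reads and its Bud31-vKO counts 9867, 11487 and 8160 reads. Scaled to library size the levels were 370, 251 and 306 CPM against 721, 820 and 603 CPM. The groups did not overlap, and Bud31-vKO library 2 was highest of all. The wild type mean was 309 ± 59.6 CPM and the Bud31-vKO mean 715 ± 108 CPM (SD, n = 3 each), a 2.31-fold higher level, and edgeR gave a log2 fold change of 1.21 (standard error 0.28). Bud31-vKO library 2 held both the highest Eif4a2 level and the highest sum of T and NK cell markers, 671 CPM. In wild type the library highest in Eif4a2, library 1, held the lowest such sum, 14.8 CPM. The part of lymphoid RNA in the Eif4a2 level was not tested. With 1 library left out the log2 fold change ranged from 1.07 to 1.36, and it was 1.10 without the library of fewest genes in each genotype.

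Eif4a1 went the other way in its mean, with overlap between the groups. Its wild type counts were 23414, 19301 and 27301 reads and its Bud31-vKO counts 17135, 12254 and 17630 reads. The levels were 1707, 1066 and 1590 CPM against 1253, 874 and 1304 CPM. Wild type library 2 lay below 2 of the 3 Bud31-vKO libraries. Its log2 fold change was -0.35 (standard error 0.30), and -0.11 without wild type library 3 and Bud31-vKO library 2. The copy Eif4a-ps4 drew 2769, 2168 and 3281 reads in the wild type and 1479, 1391 and 1686 in the Bud31-vKO libraries. These equal 11.7% ± 0.409 of the Eif4a1 reads in wild type and 9.85% ± 1.38 in Bud31-vKO (SD, n = 3 each). Since the copy is nearly identical, how the counting split reads between them is uncertain.

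The share of Eif4a2 in the pair compares both genes within a library and needs no scaling between libraries. Of the reads of both genes Eif4a2 took 17.8%, 19.07% and 16.1% in the wild type libraries and 36.5%, 48.4% and 31.6% in the Bud31-vKO libraries. The 95% Wilson interval was 15.7% to 16.5% in wild type library 3, 18.6% to 19.6% in wild type library 2, 31.1% to 32.2% in Bud31-vKO library 3 and 47.7% to 49.0% in Bud31-vKO library 2. These intervals cover counting error only. The 3 wild type libraries thus lay within a narrow band, the Bud31-vKO libraries were spread more widely, and the groups did not overlap. Per length of merged exons the share was 14.8% ± 1.28 in wild type and 34.1% ± 8.19 in Bud31-vKO (SD, n = 3 each). With the reads of Eif4a-ps4 added to Eif4a1 the share was 12.2% to 14.7% in wild type and 25.5% to 40.6% in Bud31-vKO. The summed level of the pair, wild type first, was 1763 ± 397 and 1858 ± 146 CPM (SD, n = 3 each), so the sums differed by less than the spread between the wild type libraries.

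**Figure D1:**
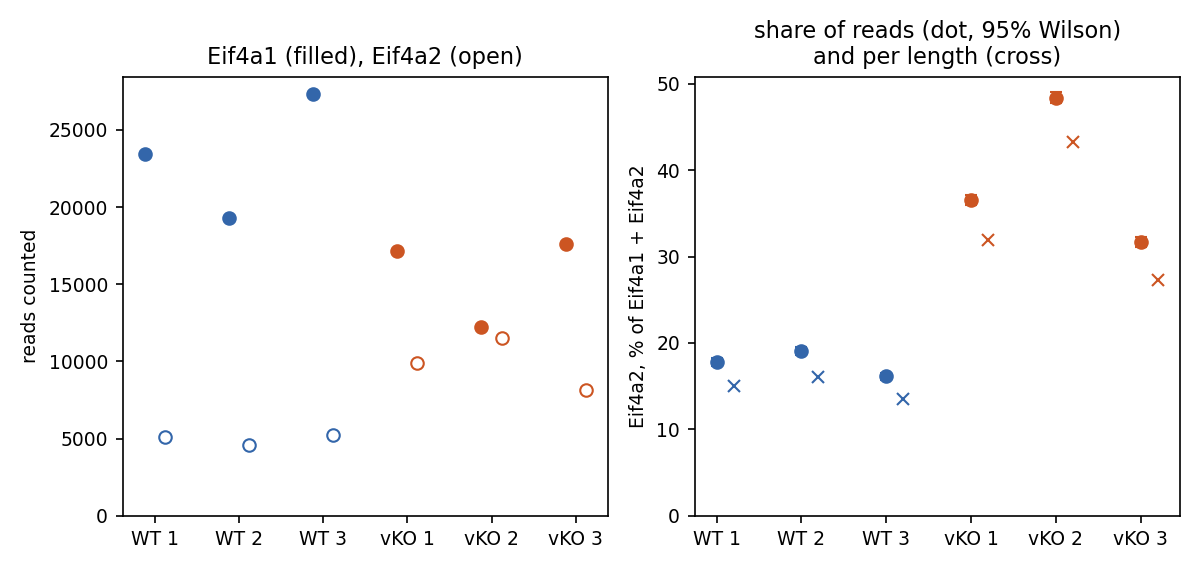
Reads of Eif4a1 and Eif4a2 in each library (left, linear axis) and the share of Eif4a2 in the pair (right, percent), with dots for shares of reads and 95% Wilson intervals, mostly smaller than the dots, and crosses for shares per length. The wild type dots lie between 16.1% and 19.07% and the Bud31-vKO dots between 31.6% and 48.4%.

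The level of one helicase over the other is given without a test, since the Eif4a2 values and the comparison with Eif4a1 were part of the choice of the group. In TPM, reads per length of merged exons scaled to the same total in each library, Eif4a1 exceeded Eif4a2 in 6 of 6 libraries. The wild type ratios were 5.68, 5.23 and 6.40 and the Bud31-vKO ratios 2.14, 1.31 and 2.66. Their means were 5.77 ± 0.592 and 2.04 ± 0.679 (SD, n = 3 each), so the excess of Eif4a1 was smaller in each Bud31-vKO library than in the wild type. The merged exons of Eif4a2 include 15 transcripts annotated as retained introns, which lengthen it to 5338 bases against 4334 for Eif4a1. With the longest transcript of each gene as the length, Eif4a2 exceeded Eif4a1 in Bud31-vKO library 2, at 712 against 649 TPM. The longest protein-coding transcript was also used as length, a choice made after seeing the data. Eif4a2 then made up 11.2% to 13.4% of the pair in wild type and 23.3% to 38.0% in Bud31-vKO. At that length Eif4a1 exceeded Eif4a2 in each library, so the order in Bud31-vKO library 2 depends on the length used.

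Gene counts do not tell transcripts of a gene apart, and both helicase genes have many. The annotation lists 25 transcripts for Eif4a2, of which 6 are protein-coding, 15 retain an intron and 3 are targets of nonsense-mediated decay. For Eif4a1 it lists 13, of which 1 is protein-coding, 4 retain an intron and 1 is a target of decay. Which of them made up the Eif4a2 reads was not tested. Exons of Eif4a2 overlap those of Rfc4, a replication factor gene on the opposite strand, over 194 bases, 3.6% of the exon length. Rfc4 levels were 162, 200.4 and 163 CPM in the wild type and 159, 55.3 and 148 CPM in the Bud31-vKO libraries. Of 10 small nucleolar RNA genes inside members, 5 lie in Eif4a2 and 3 in Eif4a1. Those in Eif4a2 overlap its annotated exons on the same strand by 10 to 178 bases each, as does the microRNA gene Gm49346 by 106. How reads there were counted is not known. Together the 5 in Eif4a2 had 1 read over all libraries, while 1 of those in Eif4a1, Gm25835, had 25.

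In wild type the order of levels per length ran from Eif4a1 at 1071 ± 281 TPM to Eif4g3 at 10.2 ± 3.54 TPM (SD, n = 3 each). Eif4a1 ranked first, Eif4e2 ninth and Eif4g3 last in each of the 6 libraries. Eif4a2 ranked 5, 7 and 7 among the 10 genes in the wild type libraries and 2, 2 and 3 in the Bud31-vKO libraries. Over all 6 libraries only 3 steps between neighbours in the order of mean level kept their direction in every library, from Eif4a1 to Eif4g2, from Eif4g1 to Eif4e2 and from Eif4e2 to Eif4g3. The step from Eif4h to Eif4a2 went opposite ways in the genotypes. Eif4h was at 230, 307 and 364 TPM and Eif4a2 at 209, 144 and 199 TPM in the wild type libraries, so that Eif4h was higher in 3 of 3. In the Bud31-vKO libraries Eif4h was at 210.0, 312 and 259 TPM and Eif4a2 at 408, 453 and 338 TPM, so that Eif4a2 was higher in 3 of 3. Eif4a2 was also above Eif4b in each Bud31-vKO library and Eif4b above Eif4e in each wild type library, while in the other genotype the direction of these steps varied. The steps from Eif4g2 to Eif4ebp1, from Eif4ebp1 to Eif4h and from Eif4e to Eif4g1 changed direction within both genotypes.

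**Figure D2:**
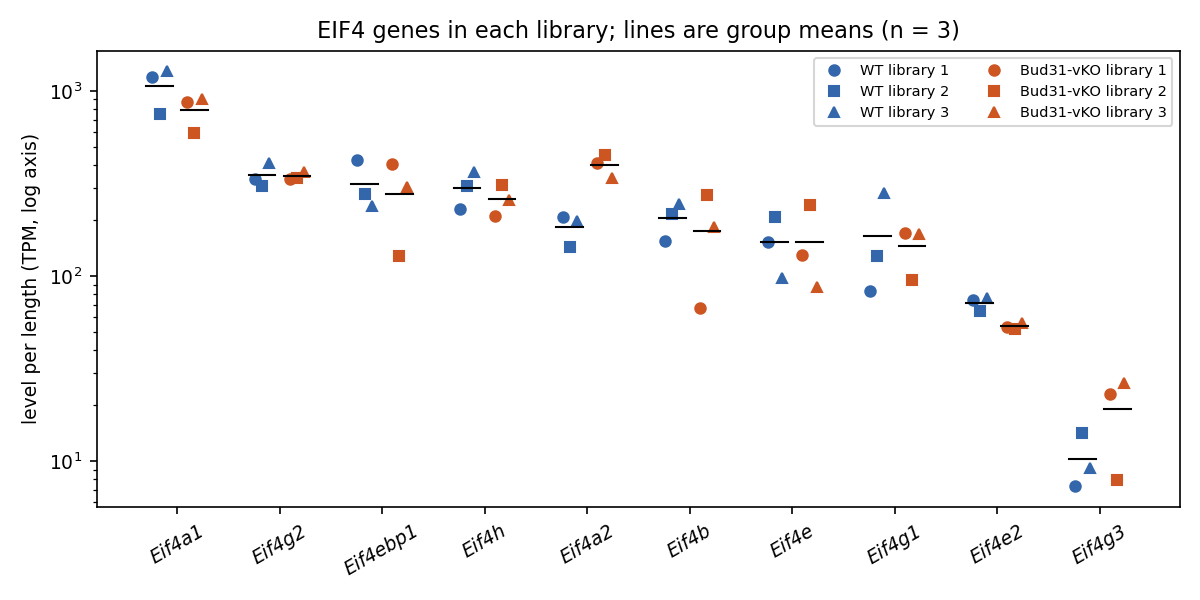
Level of each EIF4 gene per length (TPM, log axis) in 3 wild type and 3 Bud31-vKO libraries, with symbols for library numbers and lines for group means, ordered by mean level. Eif4a1 is highest and Eif4g3 lowest in every library, and the groups are apart for Eif4a2 and Eif4e2.

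In the make-up of the family by summed TPM, the shares of Eif4a2 and Eif4e2 did not overlap between the genotypes, and the mean share of Eif4a1 was lower in Bud31-vKO with overlap. Eif4a2 made up 7.31%, 5.94% and 6.23% of the summed level of the 10 genes in the wild type libraries, and 15.3%, 18.2% and 12.6% in the Bud31-vKO libraries. Eif4a1 made up 41.5%, 31.0% and 39.9% in the wild type libraries, and 32.6%, 23.9% and 33.6% in the Bud31-vKO libraries. Eif4e2 made up 2.61%, 2.66% and 2.38% against 1.98%, 2.08% and 2.08%. Eif4g2 made up 12.4% ± 0.568 and 13.2% ± 0.528, wild type first (SD, n = 3 each). All 10 genes together held 0.420% to 0.511% of reads in wild type and 0.468% to 0.493% in Bud31-vKO, ranges that overlap.

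**Figure D3:**
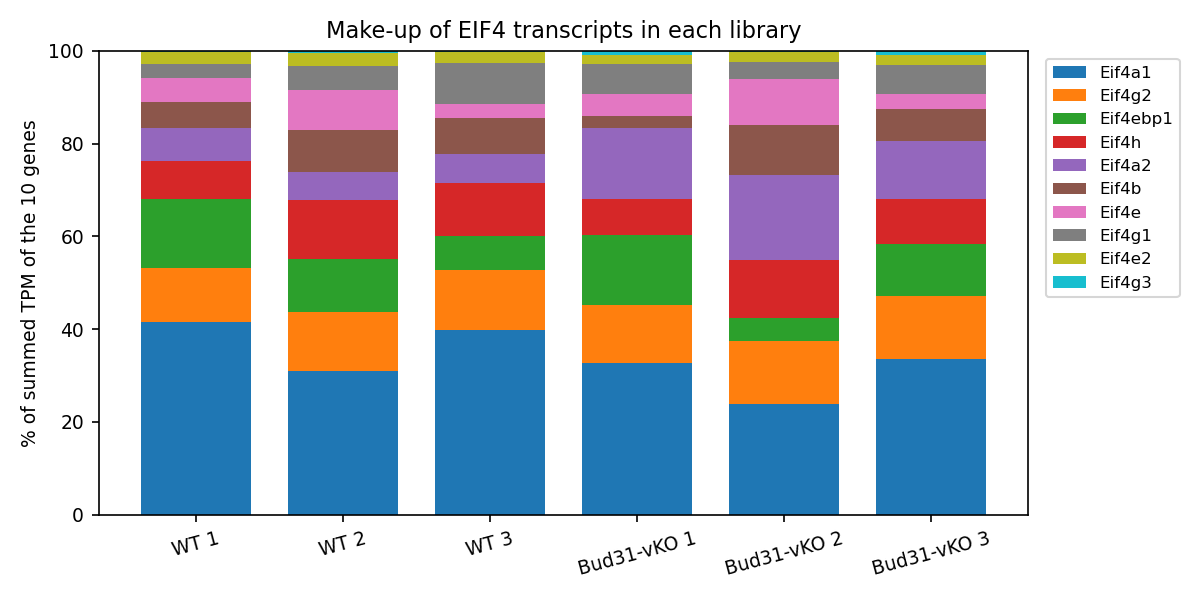
Share of each EIF4 gene in the summed TPM of the 10 genes, as stacked bars that reach 100% in each library. The band of Eif4a2 covers 5.94% to 7.31% in the wild type bars and 12.6% to 18.2% in the Bud31-vKO bars.

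The cap-binding genes behaved unlike each other. Eif4e2 encodes a cap-binding protein other than EIF4E, known mainly as a repressor of translation. It measured 185, 158 and 164 CPM in the wild type and 131, 132 and 140 CPM in the Bud31-vKO libraries. The groups did not overlap, with means of 169 ± 14.4 and 134 ± 4.75 CPM (SD, n = 3 each), and edgeR gave a log2 fold change of -0.33 (standard error 0.29). The 3 Bud31-vKO libraries lay within 8.5 CPM of each other. Eif4e, which encodes the cap-binding subunit of EIF4F, measured 305, 411 and 169 CPM in the wild type and 259, 494 and 175 CPM in the Bud31-vKO libraries. Here both groups covered almost the same range, and library 2 was highest and library 3 lowest in each. The log2 fold change of Eif4e was 0.07, but -0.71 without the library with the fewest genes detected in each genotype.

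Eif4ebp1, the gene of the EIF4E inhibitor 4E-BP1, varied within both genotypes. Its levels were 310, 201 and 151 CPM in the wild type and 292, 95.5 and 221 CPM in the Bud31-vKO libraries, a log2 fold change of -0.12. Leaving out Bud31-vKO library 2 turned it to 0.23, and leaving out wild type library 1 turned it to 0.20. It was 0.02 without the library of fewest genes in each genotype, and -0.46 when Bud31-vKO library 1 was left out. Bud31-vKO library 2 was lowest in the inhibitor and highest in Eif4e. Per length, Eif4ebp1 made up 73.5%, 57.1% and 70.9% of the sum of both genes in the wild type libraries. In the Bud31-vKO libraries it made up 75.5%, 34.6% and 77.6%. Per length the inhibitor's transcript thus exceeded that of Eif4e in all libraries except Bud31-vKO library 2. Of the reads of both genes, without length, it took 50.4%, 32.8% and 47.1% in the wild type libraries. In the Bud31-vKO libraries it took 52.9%, 16.2% and 55.8% of the reads. The order in wild type libraries 2 and 3 therefore depends on the use of length.

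Of the scaffold genes, Eif4g2 was steady across the libraries, Eif4g1 varied within both genotypes, and Eif4g3 had the higher mean in Bud31-vKO with overlap. Eif4g2 encodes a relative of EIF4G that lacks the part that binds EIF4E, and among the 10 it is the only gene whose annotated coding sequence opens with GTG in place of ATG. It measured 1134, 1022 and 1194 CPM in the wild type and 1134, 1160 and 1234 CPM in the Bud31-vKO libraries. Its coefficient of variation over the 6 libraries was 6.26%. Of the 54 tested genes within 0.5 log2 CPM of its mean level, itself included, 0% varied less, and their median was 25.7%. Eif4g1, the main scaffold, measured 202, 306 and 593 CPM in the wild type and 413, 234 and 411 CPM in the Bud31-vKO libraries. Its log2 fold change was -0.06, and 0.71 without wild type library 3 and Bud31-vKO library 2.

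Eif4g3 encodes the third scaffold, which mouse spermatocytes are known to need to leave meiotic prophase. It was the scarcest member, from 369 to 1318 reads. Its wild type levels were 26.9, 51.4 and 29.2 CPM and its Bud31-vKO levels 84.1, 29.5 and 97.5 CPM. Bud31-vKO libraries 1 and 3 stood above all wild type libraries, while Bud31-vKO library 2 lay among them. EdgeR gave a log2 fold change of 0.97 (standard error 0.62). With up to 36 exons over chromosome 4 from 137993022 to 138208508, Eif4g3 is also the member with the most exons. Among the EIF4G transcripts per length it made up 2.06% ± 0.971 in wild type and 3.61% ± 1.59 in Bud31-vKO (SD, n = 3 each), against 68.5% ± 10.2 and 68.4% ± 7.20 for Eif4g2.

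The helicase cofactors Eif4b and Eif4h did not separate the genotypes. Eif4b measured 230, 319 and 316 CPM in the wild type and 99.1, 413 and 275 CPM in the Bud31-vKO libraries. Bud31-vKO library 1 was lowest in Eif4b, and its sum of Sertoli cell markers, 1620 CPM, exceeded that of the other libraries. The part of other cells in this value was not tested. Eif4h measured 424, 559 and 581 CPM in the wild type and 386, 587 and 479 CPM in the Bud31-vKO libraries. Per length, Eif4b made up 40.3%, 41.5% and 40.3% of the sum of both cofactors in the wild type libraries, and 24.2%, 46.6% and 41.6% in the Bud31-vKO libraries. The wild type libraries thus lay close together, Bud31-vKO library 1 below them and Bud31-vKO library 2 above. The log2 fold change of Eif4b was -0.14, and -0.62 without Bud31-vKO library 2 and 0.28 without Bud31-vKO library 1. That of Eif4h was -0.11, and 0.06 without Bud31-vKO library 1.

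Over all genes edgeR's quasi-likelihood test, adjusted by Benjamini-Hochberg, left 0 of 15240 genes past 5% (0% called, smallest adjusted p 0.9997), and so 0 of the 10 members. The unadjusted p was under 0.05 for 443 genes, 2.91% of those tested, and for 1 member, Eif4a2. DESeq2 called 18 genes higher (0.125%) and 30 lower (0.209%), and among the members it called Eif4a2, whose higher level was part of the choice of the group. limma-voom called 0. The groups did not overlap for 1 member higher in Bud31-vKO, Eif4a2, where 4.76% of all tested genes did so, and for 1 member lower, Eif4e2, where 6.39% did. Among genes whose mean log2 CPM reached 5 these shares were 5.6% and 8.04%. The log2 fold change was above 0 for 4 members, as for 51.1% of all tested genes, and below 0 for 6, as for 48.9%. The median over the members was -0.08, beside 0.02 over all genes tested.

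**Figure D4:**
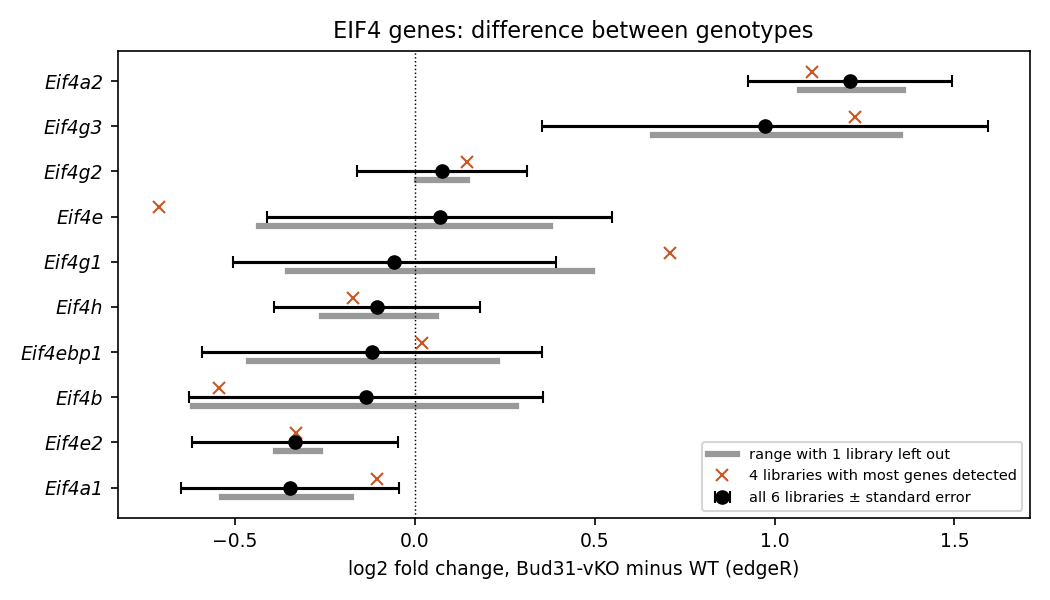
Log2 fold change of each EIF4 gene, Bud31-vKO minus wild type, from edgeR, with its standard error, the range when 1 library is left out and the value without the library of fewest genes in each genotype. Eif4a2 at 1.21 and Eif4g3 at 0.97 lie apart from the other 8 genes, which lie between -0.35 and 0.07.

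Since 0 of 15240 genes passed in edgeR, a count of 0 within a list cannot tell a changed list from an unchanged one. Among genes that work with EIF4F, 0 of 18 tested partners and regulators passed in either direction. Of these 12 had a log2 fold change above 0, and the median was 0.24, beside 51.1% and 0.02 over all genes tested. Among the 18, 2 were higher in Bud31-vKO without overlap and 0 lower, beside 4.76% and 6.39% of all tested genes. Up to 3 genes are named per list for their smallest unadjusted p, a choice that favours groups without overlap. Gigyf1, a partner of the protein of Eif4e2 in repression, measured 22.4 ± 11.6 CPM against 58.0 ± 8.42 CPM, wild type first, with no overlap (SD, n = 3 each). Cyfip1, which binds EIF4E, measured 34.7 ± 2.79 against 59.9 ± 8.61 CPM with no overlap (SD, n = 3 each). Paip2b, an inhibitor of poly(A)-binding protein, measured 26.0 ± 8.81 and 56.2 ± 39.5 CPM (SD, n = 3 each), with the groups overlapping. Pdcd4, an inhibitor of EIF4A, had a log2 fold change of 0.49 with 0.61 as its standard error, and Eif4a3, the related helicase of the exon junction complex, -0.01 with 0.40. Both were named after their values were seen.

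Other initiation factors gave no call either, which says nothing about them, since 0 of 15240 genes passed. Of 19 tested genes of eIF1, eIF2, eIF2B, eIF5 and eIF6 0 passed, 7 were above 0, and the median was -0.09. Among the 19, 1 was higher in Bud31-vKO without overlap and 2 were lower, beside 4.76% and 6.39% of all tested genes. The genes named were again chosen by unadjusted p, which favours groups without overlap. Eif1, which guards the choice of the start codon, had wild type levels of 293, 307 and 184 CPM and Bud31-vKO levels of 460, 376 and 454 CPM, without overlap. Eif2b5, the catalytic subunit of the exchange factor eIF2B, was 107 ± 28.1 and 58.1 ± 18.4 CPM, and Eif1ad 344 ± 51.8 and 210.5 ± 77.0 CPM (SD, n = 3 each), both without overlap. Of the 14 subunits of eIF3, which holds the small ribosomal subunit, 0 passed and the median was 0.03. Among the 14, 1 was higher without overlap and 0 lower, beside the same 4.76% and 6.39% of all tested genes. Eif3c had a log2 fold change of -0.44, Eif3h 0.45 and Eif3b 0.37, each with overlap.

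Later steps and upstream signalling also gave no call, which is no evidence of unchanged levels where 0 of 15240 genes passed. Of 12 elongation and termination factors 0 passed, with a median of -0.15. Among the 12, 0 were higher in Bud31-vKO without overlap and 1 was lower, beside 4.76% and 6.39% of all tested genes. The genes named were again chosen by unadjusted p, which favours groups without overlap. Eif5a, a factor that helps ribosomes through difficult stretches, had a log2 fold change of -0.55, its paralogue Eif5a2 -0.46 and the termination factor Gspt2 -0.87. Only Eif5a2 of these 3 showed no overlap. Of 22 tested genes of mTORC1 and S6 kinase signalling, the pathway that releases EIF4E from 4E-BP1, 0 passed. Among the 22, 11 lay above 0 and 11 below, and the median was -0.01. In this list 2 genes were higher without overlap and 0 lower, beside the same 4.76% and 6.39% of all tested genes. Tsc1, an inhibitor of the pathway, measured 44.9, 49.4 and 46.1 CPM in the wild type and 50.8, 106 and 60.7 CPM in the Bud31-vKO libraries. Its groups did not overlap, and Bud31-vKO library 2 stood highest. The GTPase gene Rraga had a log2 fold change of -1.12 and the S6 kinase gene Rps6kb1 one of 0.65, both with overlap.

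**Figure D5:**
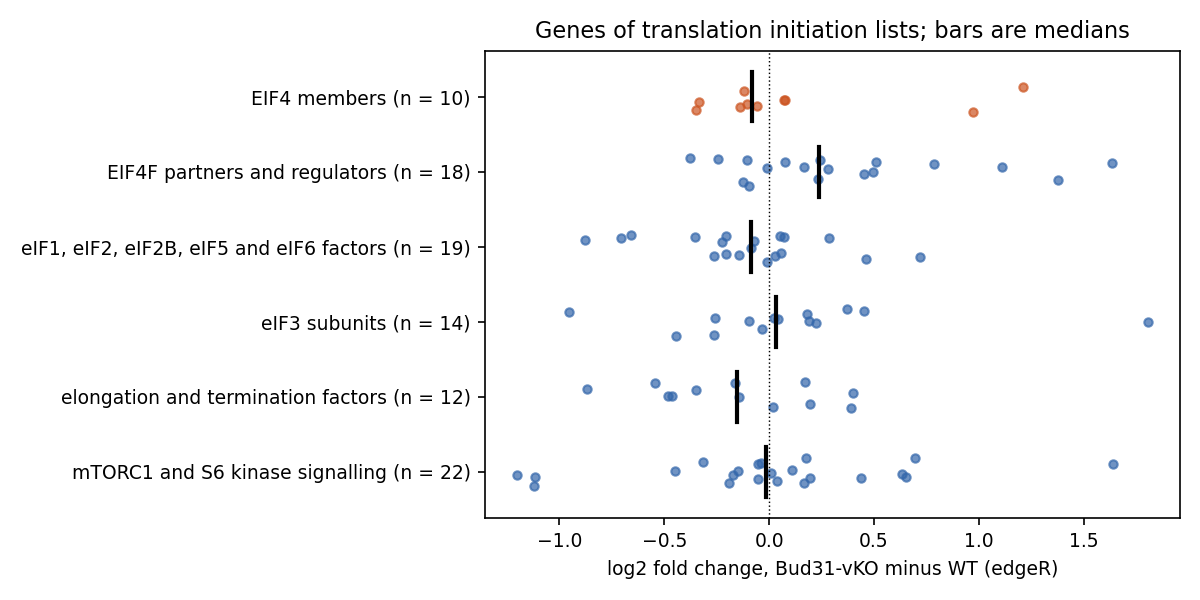
Log2 fold change, Bud31-vKO minus wild type, of each tested gene in 6 lists of translation genes, with a dot per gene, vertical scatter without meaning and bars for medians. The medians lie between -0.15 and 0.24.

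The genes most like Eif4a2 in pattern were sought among 6052 protein-coding genes whose mean log2 CPM reached 5, by Pearson's r of log2 CPM over the 6 libraries. The 5 highest were Maml2 (r = 0.981), Tmem242 (r = 0.977), H2-K1 (r = 0.976), Ttyh3 (r = 0.976) and Rab11fip5 (r = 0.975). The points share their libraries and depth, and 0.991% of the candidates had an r above 0.9. Tmem242 measured 77.8, 63.0 and 59.9 CPM in the wild type and 142, 135 and 119 CPM in the Bud31-vKO libraries. H2-K1, a class I histocompatibility gene, measured 98.6, 62.4 and 115 CPM in the wild type and 447, 769 and 287 CPM in the Bud31-vKO libraries. The groups did not overlap in any of the 5, which their selection by likeness to Eif4a2 favours. None of the 5 belongs to the lists of translation genes.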

How the data were processed

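RNA of 3 wild type and 3 Bud31-vKO libraries was used. The deposited values are raw read counts per Ensembl gene, from the unequal totals of the columns. Per the submitters' processing notes, bcl2fastq wrote the reads and mm10 was the genome. How they were aligned and counted, and whether strand was used, is not given in the sources used here. Symbols, exons and transcripts came from GENCODE M21 (GRCm38), which named 99.5% of identifiers. Low genes were dropped by edgeR 4.0.16 with filterByExpr (minimum count 10, total 15), and the rest scaled by TMM and compared with the quasi-likelihood F test without covariates in R 4.3.3. CPM use the TMM scaling over tested genes, and TPM the merged exon length. Depth was 13240704 to 18744466 reads, and 3 reads equal 0.166 to 0.222 CPM. DESeq2 1.42.0 and limma-voom (limma 3.58.1) were alternatives, with other scalings, filters, left-out libraries and a replicate block. The edgeR step was also run on simulated counts with a preset spread, which does not show what size of change it could detect in these libraries. Coding sequences were aligned with Biopython 1.88 and copies sought with BLAST+ 2.17.0.

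The members and lists were chosen with earlier results of these data known. Text names all members and Bud31, up to 3 genes per other list with the smallest unadjusted p at a mean log2 CPM of at least 5, and the 5 genes most like Eif4a2. Genes outside this rule are marked or are overlapping genes and copies. A sign-flip test of the Eif4a1 over the Eif4a2 level, planned in the design, is not reported, since the choice of the group used the Eif4a2 values.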

Additional observations from a re-analysis of the deposited data

How the results depend on the processing

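The number of genes passing over all genes was 0 under each alternative except no filter on low counts, where it was 7, and DESeq2, where it was 48. With 1 library left out it was 0 in each case. The cause was not tested. With the library number as a replicate block it was also 0, and the log2 fold change of Eif4a2 was 1.21. Same-numbered libraries deviated together with r = 0.193, 0.04 and -0.076, and libraries of different numbers with r from -0.21 to 0.11. The value of 0.193, for library 1 of both genotypes, was the highest of all pairs, and 0.04 and -0.076 lay within that range. Whether the numbers pair the samples is therefore not settled by this check. The Eif4a1 minus Eif4a2 level kept its direction in the mean throughout. With the longest transcript as length it was reversed in Bud31-vKO library 2. Over all libraries its mean was 1.75 on the log2 TPM scale, and 1.85 without the library of fewest genes in each genotype. It was 1.22 with the longest transcript as length and 2.06 with the longest protein-coding transcript. Per length of merged exons it ranged from 1.56 to 2.02 with 1 library left out. The difference in the Eif4a2 share of 19.3 percentage points ranged from 14.7 to 22.7 with 1 library left out and from 14.1 to 22.5 otherwise. Of 160 member fold changes under 16 alternatives, 14 changed sign, in Eif4b, Eif4e, Eif4ebp1, Eif4g1 and Eif4h. The longest protein-coding transcript as length and the added reads of Eif4a-ps4 were chosen after seeing the data.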
